A study of Mus musculus with 12 samples.

Results

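The genes of the myosin light chains and of the kinases that phosphorylate them were described in RNA-seq values of isolated muscle fibers. These were 7 genes chosen by their names, the essential light chains *Myl1*, *Myl3* and *Myl4*, the regulatory light chains *Mylpf* and *Myl2*, and the light chain kinases *Mylk2* and *Mylk4*. All 7 were listed among the 55367 gene symbols of the study, and all 7 were among the 14428 genes that passed the filter on low values and were tested. The values covered 12 samples of isolated fibers of the EDL (extensor digitorum longus), a fast muscle of the mouse hindlimb. Of these, 4 samples came from young mice (3–4 months of age) and 8 from aged mice (26–28 months). The aged fibers were stained with the Ca2+ indicator Fluo-4 and separated under a fluorescence stereomicroscope into 4 samples of Fluo-4 normal fibers and 4 samples of Fluo-4 abnormal fibers, which stained aberrantly and more brightly. No transgene, deletion or drug is given for any of the 3 groups. The methods name C57BL/6J mice, and they describe the abnormal staining in males. The number of fibers and of mice in a sample is not given in the sources used here, so the p-values measure only the spread between these samples. The values are TPM, the share of each gene's transcripts in a sample, which correct for transcript length and for the total of each sample. Read counts were not used here, so the depth behind a TPM value is unknown and no counting error is given. In such samples, a higher value in every fiber and more fibers with the gene cannot be told apart.

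Myosin is the motor of the thick filament, and the neck of each heavy chain is wrapped by an essential and a regulatory light chain. *Myl1* and *Mylpf* encode the essential and the regulatory chain of fast fibers, *Myl3* and *Myl2* those of slow fibers and of the heart ventricle, and *Myl4* the essential chain of embryonic muscle and of the heart atria. Skeletal muscle light chain kinase, the product of *Mylk2*, is switched on by Ca2+ and calmodulin and phosphorylates the regulatory chain, which raises the force of fast fibers after repeated stimulation. *Mylk4* encodes a related kinase of heart and skeletal muscle. The phosphate is removed by a myosin phosphatase built around *Ppp1cb*. The Fluo-4 dye reports Ca2+, the ion that binds calmodulin. In the paper, however, the bright staining overlapped with a marker of the sarcoplasmic reticulum, the Ca2+ store of the fiber. Away from the bright regions, the paper found abnormal and normal aged fibers to be alike in Fluo-4 signal. The Ca2+ response to caffeine was weaker in the abnormal fibers. Whether more Ca2+ reaches calmodulin in them was not tested.

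The stretches that show the kinase's substrate lie at the start of the regulatory chains. *Mylpf* is on the plus strand at chr7:126807207-126813470 (GRCm39) and *Myl2* on the plus strand at chr5:122238848-122251545. The first bases of both coding sequences are shown from the start codon, with the neighbouring pair of serine codons that holds the phosphorylated site in capitals.
Mylpf: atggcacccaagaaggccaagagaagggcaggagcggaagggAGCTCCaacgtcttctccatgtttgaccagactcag
Myl2: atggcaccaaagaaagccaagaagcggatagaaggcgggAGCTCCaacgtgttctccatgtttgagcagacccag
Both carry the same 6 bases at the pair of serine codons, and over 498 aligned coding bases the genes were 70.3% identical. Their longest run of identical bases was 20 in the whole transcript, so reads of the fast and the slow regulatory chain differ at many bases.

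Among the essential chains, *Myl1* has 1 nearly identical pseudogene copy. *Myl1* lies on the minus strand at chr1:66963454-66984642, *Myl3* on the plus strand at chr9:110570929-110599396 and *Myl4* on the plus strand at chr11:104440903-104486603. The processed pseudogene *Mylf-ps* is an intronless copy of part of the *Myl1* transcript. Over the 421 bases of *Mylf-ps* there were 3 substitutions, and the longest identical run was 167 bases. The longest run shared by *Myl1* and *Myl4* was 25 bases, and their coding sequences were 70.6% identical. *Mylf-ps* was listed at 282 to 531 TPM, between 0.892% and 1.28% of the *Myl1* value of the same sample, and how the authors' counting split reads between them is not given in the sources used here, so both values are uncertain to that extent.

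The fibers were fast fibers by their light chains. *Myl1* and *Mylpf* were the highest members in all 12 samples, *Mylk2* and *Mylk4* followed, and the slow chains *Myl2* and *Myl3* were near or at 0. The 5 light chains together held 4.51% to 6.49% of all TPM. *Myl2* made up at most 0.0215% of the regulatory light chain TPM in any sample, and *Myl3* at most 0.00158% of the essential light chain TPM. On the TPM scale, the lowest *Myl1* value (28718) was above the highest *Mylpf* value (24732), the lowest *Mylpf* value (15895) was above the highest *Mylk2* value (366), and the lowest *Mylk2* value (99.4) was above the highest *Mylk4* value (69.0). *Mylk4* was above *Myl4* in 12 of 12 samples, but the ranges of these neighbours overlapped, and so did those of *Myl2* and *Myl3*. The heavy chains had the same character, with *Myh4*, the heavy chain of the fastest (type IIb) fibers, at 93.7% to 99.7% of the TPM of the 4 adult heavy chain genes.

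**Figure D1:**
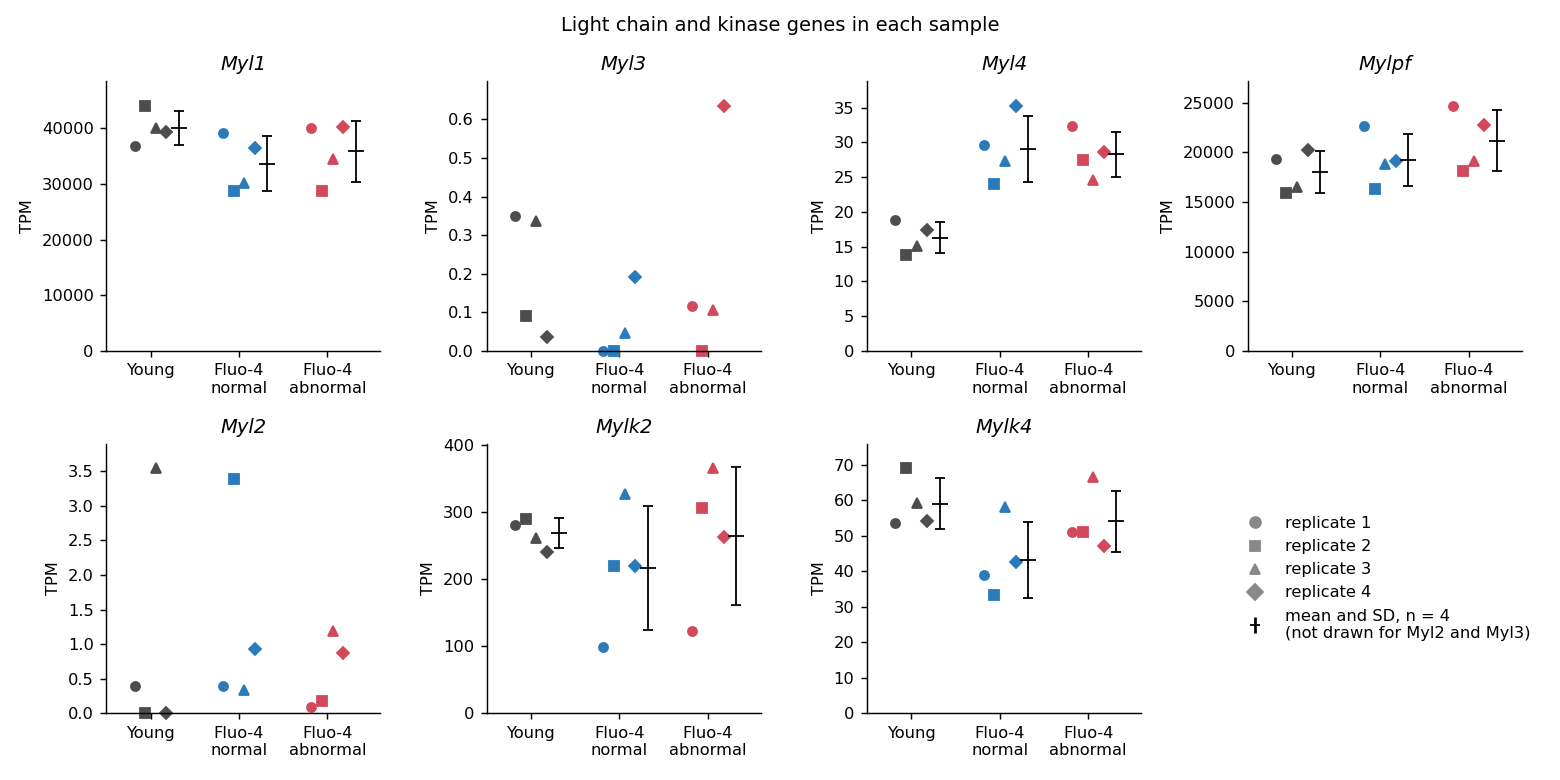
TPM (y axis, linear, from 0) of the 7 genes in each of the 12 samples (x axis, 3 groups of 4), with 1 symbol per replicate number and the mean and SD beside the points, except for *Myl2* and *Myl3*, which have samples listed at 0. All 8 aged samples of *Myl4* sit above the 4 young ones, whereas the groups of the other 6 genes overlap in all 3 comparisons.

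The clearest change among the 7 genes was a rise of *Myl4*, the embryonic and atrial essential chain, in both groups of aged fibers. *Myl4* was at 18.9, 13.8, 15.1 and 17.3 TPM in the young samples, at 29.6, 24, 27.3 and 35.3 TPM in the Fluo-4 normal samples and at 32.4, 27.5, 24.6 and 28.6 TPM in the Fluo-4 abnormal samples. Every aged sample was higher than every young sample, and the 2 aged groups overlapped. The means were 16.3 ± 2.27 (SD, n = 4), 29.1 ± 4.75 and 28.3 ± 3.2 TPM, so that Fluo-4 normal fibers had 1.79 times and Fluo-4 abnormal fibers 1.74 times the young mean. On the log2(TPM + 1) scale, where a difference of 1 is close to a doubling for all but low genes, *Myl4* was higher by 0.79 ± 0.13 (SE, adjusted p = 0.00985) in Fluo-4 normal and by 0.76 ± 0.13 (SE, adjusted p = 0.0033) in Fluo-4 abnormal than in young fibers, by limma over all tested genes. These 2 comparisons share the young samples. Between Fluo-4 abnormal and Fluo-4 normal fibers *Myl4* differed by -0.031 ± 0.13 (SE, adjusted p = 0.911), less than the spread between replicates.

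*Myl4* was the only 1 of the 7 genes with an adjusted p under 0.05 in either comparison with young fibers, against 1.15% of all 14428 genes tested for Fluo-4 normal and 8.5% for Fluo-4 abnormal fibers. Its groups did not overlap in either comparison, which held for 7.98% and 16.2% of the tested genes. Over all genes the calls split into 81 higher and 85 lower in Fluo-4 normal and 879 higher and 348 lower in Fluo-4 abnormal than in young fibers, and with TMM-type factors into 136 higher and 76 lower and into 513 higher and 634 lower, with *Myl4* higher under both scalings. The rise in Fluo-4 normal fibers did not pass the threshold without young replicate 2 (adjusted p = 0.0562), without young replicate 3 (adjusted p = 0.0553) or with a spread estimated from these 2 groups alone (adjusted p = 0.0651), at log2 differences of 0.72 to 0.79. *Myl4* stayed far below the adult fast chain, at 0.0313% to 0.0513% of the essential light chain TPM in young and 0.0710% to 0.0968% in aged samples. The gene lies opposite *Cdc27*, a subunit of the anaphase-promoting complex, over 544 bases, and the libraries keep no strand. *Cdc27* was at 3.71 TPM in young, 4.25 in Fluo-4 normal and 4.75 TPM in Fluo-4 abnormal fibers on average. Erythroid and endothelial markers were each fitted higher in 5 of 5 genes in normal and 4 of 5 in abnormal than in young fibers. All 4 Schwann cell markers were fitted higher in both aged groups than in young fibers. Their summed level was 0.773 to 1.81 TPM in young, 1.42 to 6.32 in normal and 3.57 to 7.45 TPM in abnormal samples. Unlike *Myl4*, all 4 were also fitted higher in abnormal than in normal fibers, *Mbp* by 0.71 ± 0.30 (SE, adjusted p = 0.159). In 2 of these 4 genes every aged sample was above every young one. Both were called in abnormal against young fibers, *Mbp* at 1.60 ± 0.30 (SE, adjusted p = 0.00648) and *Sox10*, listed at 0 in 3 young samples, at 0.28 ± 0.067 (SE, adjusted p = 0.0214). In normal against young fibers they did not pass, at 0.89 ± 0.30 (SE, adjusted p = 0.199) and 0.18 ± 0.067 (SE, adjusted p = 0.245), and the part of these cells in the *Myl4* values was not tested. The developmental heavy chains gave no call beside *Myl4*. *Myh3*, the embryonic heavy chain, was at 0.027 to 0.055 TPM in young and 0.028 to 0.156 TPM in aged samples. *Myh8*, the perinatal heavy chain, was at 3.17 to 4.5 TPM in young, 2.55 to 3.24 in normal and 3.33 to 5.85 TPM in abnormal samples. Its aged groups did not overlap, as for 14.0% of the tested genes, at 0.34 ± 0.17 (SE, adjusted p = 0.238).

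*Myl1*, the essential chain of adult fast fibers, gave no call. Its TPM values were 36816, 44091, 40008 and 39380.4 in young, 39100.0, 28718, 30184 and 36446 in Fluo-4 normal and 40125, 28726, 34402 and 40232 in Fluo-4 abnormal samples. Fluo-4 normal replicates 2 and 3 and the second Fluo-4 abnormal sample were low, and the groups overlapped in each comparison. The log2 difference from young fibers was -0.26 ± 0.15 (SE, adjusted p = 0.504) in Fluo-4 normal and -0.17 ± 0.15 (SE, adjusted p = 0.548) in Fluo-4 abnormal fibers, and 0.092 ± 0.15 (SE, adjusted p = 0.733) between the aged groups. A gene-level value adds up the long and the short essential chain that are made from *Myl1*, so a shift between these isoforms is not visible here.

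*Myl3*, the slow and ventricular essential chain, was listed at 0.349, 0.090, 0.337 and 0.036 TPM in young, 0, 0, 0.046 and 0.19 TPM in Fluo-4 normal and 0.115, 0, 0.106 and 0.636 TPM in Fluo-4 abnormal samples. No sample reached 1 TPM, 3 aged samples were listed at 0, and the groups overlapped. The log2 differences were 0.17 ± 0.14 (SE, adjusted p = 0.462) between abnormal and normal fibers, -0.18 ± 0.14 (SE, adjusted p = 0.64) between normal and young and -0.0034 ± 0.14 (SE, adjusted p = 1.0) between abnormal and young fibers. A change at this level was not detectable.

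**Figure D2:**
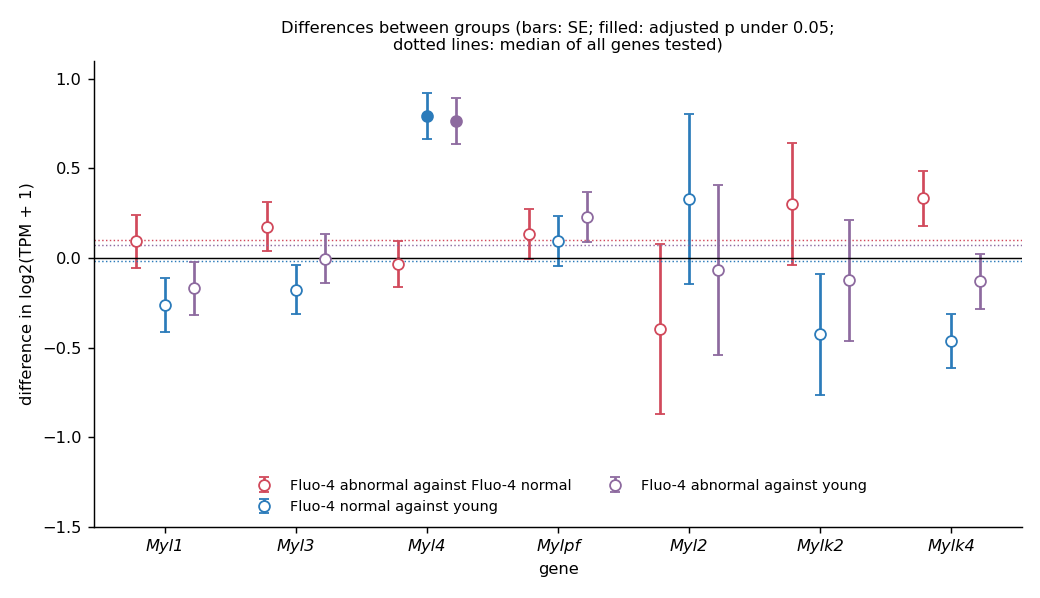
Difference in log2(TPM + 1) (y axis) of each of the 7 genes (x axis) in the 3 comparisons, as limma estimates with SE bars; filled points have an adjusted p under 0.05. Only *Myl4* against young fibers is filled, at 0.79 and 0.76, and the dotted lines give the median of all genes tested (0.10, -0.018 and 0.074).

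Of the regulatory chains, the fast chain *Mylpf* was abundant and gave no call. It stood at 19346, 15895, 16494 and 20266 TPM in the young samples, 22650.0, 16361, 18816 and 19165 TPM in the Fluo-4 normal samples and 24732, 18118, 19125 and 22719 TPM in the Fluo-4 abnormal samples. The first aged sample of each kind was highest in its group and the second lowest, and all 3 groups overlapped. *Mylpf* differed by 0.14 ± 0.14 (SE, adjusted p = 0.577) between abnormal and normal fibers, by 0.095 ± 0.14 (SE, adjusted p = 0.837) between normal and young fibers and by 0.23 ± 0.14 (SE, adjusted p = 0.365) between abnormal and young fibers. A stretch of 210 bases of its transcript is also transcribed from the other strand as part of *Septin1*, which was at most 0.555 TPM.

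The slow regulatory chain *Myl2* was listed at 0.399, 0, 3.54 and 0 TPM in young samples, 0.395, 3.38, 0.341 and 0.923 TPM in Fluo-4 normal samples and 0.091, 0.177, 1.19 and 0.87 TPM in Fluo-4 abnormal samples. The third young and the second Fluo-4 normal sample stood above the other 10, which reached at most 1.19 TPM, and 2 young samples were listed at 0. The groups overlapped, and no comparison passed the threshold, with log2 differences of -0.40 ± 0.47 (SE, adjusted p = 0.634), 0.33 ± 0.47 (SE, adjusted p = 0.832) and -0.069 ± 0.47 (SE, adjusted p = 0.958) for abnormal against normal, normal against young and abnormal against young fibers. The second Fluo-4 normal sample also had the lowest *Myh4* share (93.7%) and the most *Myh2*, the heavy chain of type IIa fibers (34.6 TPM). The part of its fiber makeup in the *Myl2* value was not tested.

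Neither kinase passed the threshold in the 3 comparisons, yet in each pair of aged samples with the same replicate number both had a higher TPM in the Fluo-4 abnormal sample. *Mylk2* was at 282, 291, 261 and 241 TPM in young, 99.4, 220.1, 327 and 219.9 TPM in Fluo-4 normal and 123, 307, 366 and 263 TPM in Fluo-4 abnormal samples. The young samples lay close together, whereas the first sample of both aged groups was far below the others and the third was highest. *Mylk4* was at 53.5, 69, 59.3 and 54.2 TPM in young, 39, 33.2, 58 and 42.7 TPM in Fluo-4 normal and 51.2, 51.1, 66.7 and 47.3 TPM in Fluo-4 abnormal samples. Of the Fluo-4 normal samples only the third reached the range of the young ones, and all groups overlapped.

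Between abnormal and normal fibers, the log2 difference was 0.30 ± 0.34 (SE, adjusted p = 0.612) for *Mylk2* and 0.33 ± 0.15 (SE, adjusted p = 0.19) for *Mylk4*. Relative to young fibers, *Mylk2* differed by -0.43 ± 0.34 (SE, adjusted p = 0.651) in Fluo-4 normal and by -0.12 ± 0.34 (SE, adjusted p = 0.868) in Fluo-4 abnormal fibers. *Mylk4* differed from young fibers by -0.46 ± 0.15 (SE, adjusted p = 0.18) in the normal and by -0.13 ± 0.15 (SE, adjusted p = 0.665) in the abnormal group. *Mylk4* had an unadjusted p of 0.0477 between the aged groups and of 0.00948 between normal and young fibers. With *Myl4* that made 2 of 7 genes at an unadjusted p under 0.05 between normal and young fibers and 1 of 7 between abnormal and young fibers, against 12.9% and 23.0% of all genes tested. Without the third Fluo-4 normal sample, *Mylk4* was higher in abnormal than in normal fibers by 0.48 ± 0.13 (SE, adjusted p = 0.0416). With all 12 samples, 0 of the 7 genes passed the threshold between abnormal and normal fibers by limma and 1 had an unadjusted p under 0.05, against 9.35% and 25.6% of all genes tested. The 2 aged groups overlapped for 7 of 7 genes, whereas 14.0% of all genes tested had no overlap there.

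The aged samples deviated together by number in their whole profile, and the pairs were therefore compared. The log2 difference of abnormal from normal was 0.31, 0.48, 0.16 and 0.26 for *Mylk2* in pairs 1 to 4, and 0.39, 0.61, 0.20 and 0.14 for *Mylk4*. All 4 pairs were also higher for *Myl1* and *Mylpf*, by at most 0.19 and 0.25, so that 4 of the 7 genes were higher in 4 of 4 pairs. Among all genes tested, 27.9% were higher in 4 of 4 pairs and 5.50% were lower, since the median gene was higher in abnormal fibers by 0.10. With the replicate number as a block, the difference was 0.30 ± 0.061 (SE, adjusted p = 0.0503) for *Mylk2* and 0.33 ± 0.091 (SE, adjusted p = 0.094) for *Mylk4*. Scaling by factors of the TMM type (a trimmed mean of log ratios), which sets the median gene near 0, turned *Myl1* and *Mylpf* lower (-0.14 and -0.094) and left *Mylk2* at 0.073 and *Mylk4* at 0.11. Relative to the median gene, *Mylk2* was higher by 0.20 and *Mylk4* by 0.23 without that scaling. The values of the pairs were also taken without it. In pair 1 the factor was 0.81 for the normal and 1.051 for the abnormal sample, so the direction within a pair depends on the scaling. With block and factors together 0 of the 7 genes passed the threshold.

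**Figure D3:**
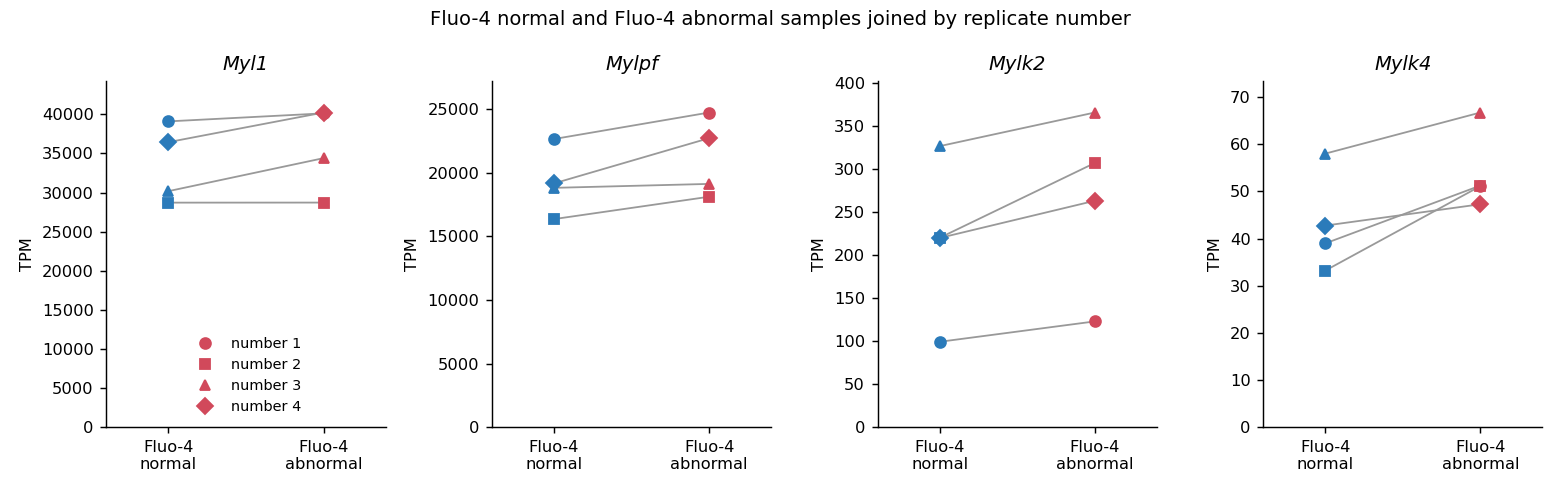
TPM (y axis, linear, from 0) of *Myl1*, *Mylpf*, *Mylk2* and *Mylk4* in both aged groups (x axis, Fluo-4 normal on the left), with a line joining the samples that share a replicate number. None of the lines points downward (*Myl1* in pair 2 is level), and for *Mylk2* number 1 is the lowest and number 3 the highest in both groups.

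Ratios of 2 abundant genes within a sample do not depend on how the sample was scaled. The tests added 1 TPM to each value, so this does not hold for *Myl2* and *Myl3*. The ratio of *Myl1* to *Mylpf*, the essential to the regulatory fast chain, was 1.9, 2.77, 2.43 and 1.94 in young, 1.73, 1.76, 1.6 and 1.9 in Fluo-4 normal and 1.62, 1.59, 1.8 and 1.77 in Fluo-4 abnormal samples. The aged samples all lay below the young ones, though the fourth Fluo-4 normal sample came close to the first young sample (1.902 against 1.903). The log2 ratio was -0.36 in normal and -0.40 in abnormal fibers relative to young fibers. Each had a two-sided exact permutation p of 0.0286, the smallest that 4 samples against 4 can give. The adjusted p was 0.171 over the 12 tests of ratios. With only these 2 tests at the smallest p, the correction could not be passed, so the miss decides nothing. Between the aged groups the log2 ratio differed by -0.044 (exact permutation p = 0.60, adjusted p = 0.994).

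The ratio of *Mylk4* to *Mylk2* was 0.19, 0.238, 0.227 and 0.225 in young, 0.392, 0.151, 0.178 and 0.194 in Fluo-4 normal and 0.416, 0.167, 0.182 and 0.18 in Fluo-4 abnormal samples. The first sample of each aged group had about the same high ratio, and of the other 6 aged samples 5 were below the young range. The log2 ratio differed by 0.032 between the aged groups (exact permutation p = 0.829), and the SD within a group was 0.62 and 0.60. Against young fibers it differed by -0.037 in normal fibers (exact permutation p = 0.971) and by -0.0045 in abnormal fibers (exact permutation p = 1.0).

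The ratios of slow to fast chains, with 1 TPM added to each value, gave no shift towards either type that exceeded the spread. The log2 ratio of *Myl2* to *Mylpf* differed by -0.53 between abnormal and normal fibers (exact permutation p = 0.457), by 0.23 between normal and young (exact permutation p = 0.714) and by -0.30 between abnormal and young fibers (exact permutation p = 0.771). For *Myl3* to *Myl1* the differences were 0.082, 0.085 and 0.17 in the same order, with exact permutation p-values of 0.657, 0.743 and 0.371. Of the 12 tests of ratios, 2 had an unadjusted p under 0.05. An adjusted p under 0.05 was reached by 0, and a few tests at the smallest possible p cannot reach it. With *Myl2* and *Myl3* at these levels the added 1 TPM sets most of the value.

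**Figure D4:**
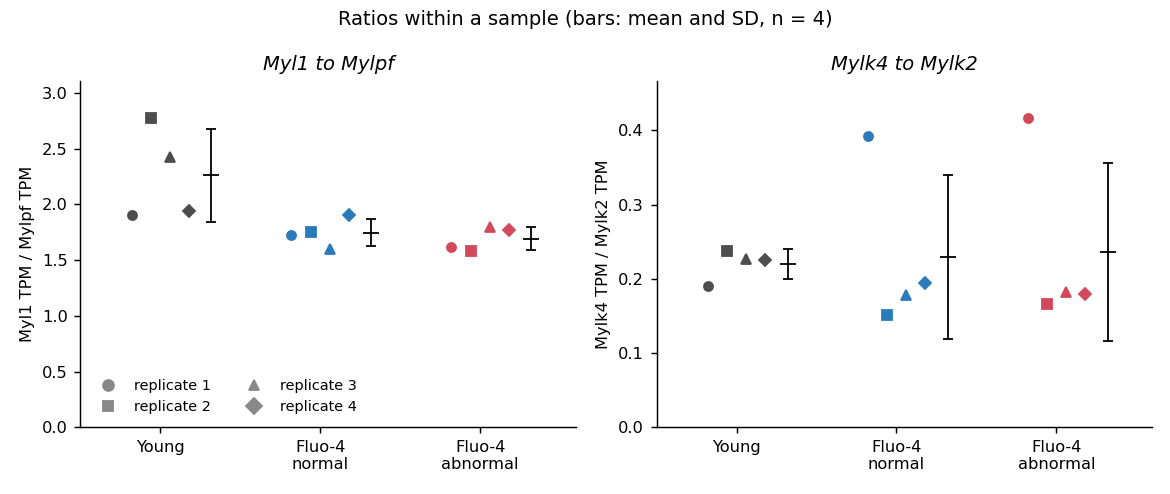
Ratio of TPM values within a sample (y axes, linear, from 0) for *Myl1* to *Mylpf* (left) and *Mylk4* to *Mylk2* (right) in the 3 groups of 4 samples (x axis), with the mean and SD beside the points. The young *Myl1* to *Mylpf* ratios run from 1.903 to 2.77 and the aged ones from 1.59 to 1.902, and the first sample of both aged groups stands apart in the *Mylk4* to *Mylk2* ratio (0.392 and 0.416).

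Several genes on the lists of calmodulin, other light chain kinases and the phosphatase were called between the aged groups, where 9.35% of all genes tested were. The 7 genes gave no call there, and an action of the called genes on the light chains of these fibers was not tested. The first was *Calm3*, a gene of calmodulin, the Ca2+ sensor of the kinase. *Calm3* stood at 51.5, 69, 58.8 and 48.7 TPM in normal and 65.3, 103, 97.8 and 83.2 TPM in abnormal samples, with the first abnormal sample inside the normal range, and rose by 0.60 ± 0.14 (SE, adjusted p = 0.0189). It was lower in normal than in young fibers (86 to 109 TPM), with a log2 difference of -0.73 ± 0.14 (SE, adjusted p = 0.0271). That call was lost with no filter, with only the 2 groups compared and with the block, with or without TMM-type factors (adjusted p = 0.0529 to 0.0957). In comparisons with young fibers the block joins samples only by number. Both comparisons share the Fluo-4 normal samples, and abnormal against young fibers gave -0.13 ± 0.14 (SE, adjusted p = 0.632). The median log2 difference of all genes tested between the aged groups was 0.10, and 7.36% of them rose and 1.99% fell. With TMM-type factors the split over all genes was 327 higher and 574 lower, in place of 1062 and 287, and *Calm3* did not pass by limma, though it stayed above 0 (0.37, adjusted p = 0.0935), nor did it pass with only the 2 groups compared (adjusted p = 0.0809) or with block and factors together (adjusted p = 0.187). The summed level of 5 immune markers moved the same way as the genes called between the aged groups, at 0.794 to 1.98 TPM in young, 1.01 to 1.69 in normal and 2.63 to 5.71 TPM in abnormal samples. Of that list *Cd3e* rose by 1.20 ± 0.19 (SE, adjusted p = 0.00295), at 0.608 to 0.854 TPM in normal and 2.1 to 4.86 TPM in abnormal samples. *Cd68* was at 0.062 to 0.583 TPM in normal and 0.407 to 2.84 TPM in abnormal samples. *Csf1r* went the other way, at 0.006 to 0.385 TPM in normal and 0 to 0.141 TPM in abnormal samples. *Ptprc* was at or under 0.262 TPM and *Adgre1* at or under 0.011 TPM in all samples, and the part of immune cells was not tested.

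On the list of other light chain kinases, *Dapk3* and *Rock2* rose in Fluo-4 abnormal fibers. *Dapk3*, a death-associated protein kinase, was at 24.9, 24.3, 26.4 and 25.1 TPM in normal and 30.7, 32.6, 32.9 and 37.4 TPM in abnormal samples, without overlap, a rise of 0.39 ± 0.087 (SE, adjusted p = 0.0152), and it was also higher than in young fibers, by 0.46 ± 0.087 (SE, adjusted p = 0.00641), where 6.09% of all genes tested rose and 2.41% fell. *Rock2*, a kinase that inhibits the myosin phosphatase, was at 13.9, 20.0, 17.6 and 18.3 TPM in normal and 26.2, 33.2, 23.8 and 24.2 TPM in abnormal samples and rose by 0.60 ± 0.14 (SE, adjusted p = 0.0186). These were 2 of 6 tested genes of that list, and 0 fell, against 7.36% of all genes tested that rose and 1.99% that fell between the aged groups. The median of the list was 0.39, and 0.17 with TMM-type factors. With TMM-type factors *Rock2* passed (0.38, adjusted p = 0.0461) and *Dapk3* did not (0.17, adjusted p = 0.378), nor did *Dapk3* with the *Myh4* share as a covariate (0.36, adjusted p = 0.105). *Rock2* missed the threshold with block and TMM-type factors together (adjusted p = 0.0671) and with only the 2 groups compared (adjusted p = 0.0566), and *Dapk3* against young fibers did so with TMM-type factors (adjusted p = 0.0596). *Mylk*, the smooth muscle kinase, was under 1 TPM in 11 samples and at 2.52 TPM in the second young sample, and *Mylk3*, the cardiac kinase, was listed at 0 in 11 samples.

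The phosphatase side was called at its inhibitors. *Ppp1r14c*, an inhibitor of the phosphatase's catalytic subunit, was at 64.8, 59, 62.7 and 58.8 TPM in normal and 84.8, 101, 102 and 82.2 TPM in abnormal samples and rose by 0.58 ± 0.088 (SE, adjusted p = 0.0024). It was lower in normal than in young fibers (71.6 to 88.1 TPM, -0.40 ± 0.088 (SE, adjusted p = 0.0443)), a comparison that shares the normal samples. *Ppp1r14b*, a second inhibitor of this family, rose by 0.43 ± 0.12 (SE, adjusted p = 0.0338), at 129 to 186 TPM in normal and 192 to 267 TPM in abnormal samples. The catalytic subunit *Ppp1cb* was at 63.3 to 96.9 TPM in normal and 62.8 to 96 TPM in abnormal samples and did not pass the test (-0.071 ± 0.14 (SE, adjusted p = 0.795)). Of 7 genes tested, 2 rose and 0 fell between the aged groups, against 7.36% and 1.99% of all genes tested. The median of the 7 was 0.42, and 0.20 with TMM-type factors. With TMM-type factors *Ppp1r14c* passed (0.35, adjusted p = 0.0424), whereas *Ppp1r14b* did not (0.20, adjusted p = 0.539), nor with the replicate block (0.43, adjusted p = 0.0633). With block and factors together *Ppp1r14c* missed the threshold (adjusted p = 0.157), and over all these settings the adjusted p of *Ppp1r14b* ran from 0.0153 to 0.539. Between normal and young fibers 1 of them fell, *Ppp1r14c*, against 0.589% of all genes. Its adjusted p ran from 0.0238 to 0.209 over the settings and missed the threshold in 8 of 10 alternatives. The block, which joins young and aged samples only by number, was among these. Between abnormal and young fibers 0 passed the limma threshold, with 2 at an unadjusted p under 0.05.

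**Figure D5:**
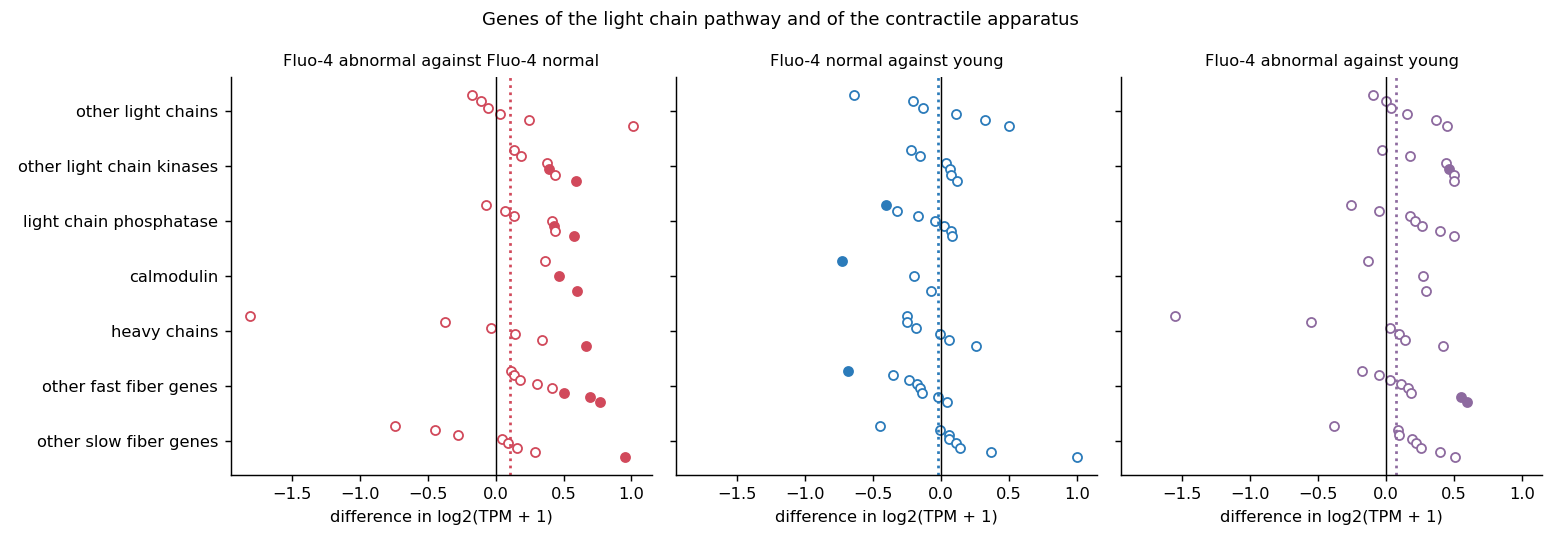
Difference in log2(TPM + 1) (x axis) of each tested gene of 7 lists (y axis) in the 3 comparisons (panels), 1 point per gene; filled points have an adjusted p under 0.05 and the dotted line is the median of all genes tested. Between abnormal and normal fibers all filled points lie to the right (fewer of them pass with TMM-type factors), and between normal and young fibers all 3 filled points lie to the left.

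The light chains of other muscle types and of non-muscle myosin gave no call, by limma with the 3 groups in 1 fit, in any comparison. *Myl12a*, a regulatory chain of non-muscle myosin, was the highest of them at 292 to 338 TPM in young, 339 to 524 TPM in normal and 377 to 513 TPM in abnormal samples. All aged samples were above all young ones, at log2 differences of 0.50 ± 0.13 (SE, adjusted p = 0.0879) and 0.44 ± 0.13 (SE, adjusted p = 0.0528). *Myl12a* passed in abnormal against young fibers under 5 alternatives, among them the filter of 5 TPM (adjusted p = 0.0243), and in normal against young fibers with that filter or TMM-type factors (adjusted p = 0.0407 and 0.0424). *Myl9*, the smooth muscle regulatory chain, was at 8.33, 13.1, 5.33 and 9.53 TPM in normal and 22.9, 18.4, 10.4 and 26.1 TPM in abnormal samples (1.01 ± 0.43 (SE, adjusted p = 0.16)), and it passed with the replicate block (adjusted p = 0.0383). In young samples *Myl9* was at 12, 42.3, 7.79 and 9.48 TPM, and the second sample, the highest, also had the most *Acta2* (37.1 TPM) and *Myh11* (6.44 TPM), both smooth muscle markers. The atrial regulatory chain *Myl7*, the partner of *Myl4* in the heart, was listed at 0 in all 12 samples. In each comparison 1 of the 6 tested genes of this list had an unadjusted p under 0.05, near or under the 25.6%, 12.9% and 23.0% of all genes tested.

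Of the other genes of the fast contractile apparatus, some rose in Fluo-4 abnormal fibers and others, like *Myl1* and *Mylpf*, gave no call. *Myh4* was at 6254, 8598, 9813 and 8159 TPM in normal and 10770.1, 14714, 15574 and 10992 TPM in abnormal samples, a rise of 0.66 ± 0.16 (SE, adjusted p = 0.0198). *Mybpc2*, the fast myosin-binding protein C, rose by 0.69 ± 0.079 (SE, adjusted p = 0.000516), at 1683 to 1873 TPM in normal and 2477 to 3088 TPM in abnormal samples. *Casq1*, the Ca2+ store protein of the fast sarcoplasmic reticulum, rose by 0.50 ± 0.072 (SE, adjusted p = 0.00174). It was lower in normal than in young fibers (-0.68 ± 0.072 (SE, adjusted p = 0.000421)), a comparison that shares the normal samples. Its abnormal samples (3034 to 3443 TPM) were also all below the young ones (3522 to 3867 TPM), at -0.18 ± 0.072 (SE, adjusted p = 0.149). Among 8 other fast fiber genes 3 rose and 0 fell between the aged groups, against 7.36% and 1.99% of all genes tested. The median of these 8 was 0.36, and with TMM-type factors it was 0.13, with 2 called. The 7 light chain and kinase genes had a median of 0.14 and all genes tested 0.10, but the 7 include *Myl4* and the slow chains near 0 TPM. The fast troponin genes of the thin filament did not pass, at 0.13 ± 0.11 (SE, adjusted p = 0.48) for *Tnnt3*, 0.11 ± 0.10 (SE, adjusted p = 0.527) for *Tnni2* and 0.18 ± 0.11 (SE, adjusted p = 0.343) for *Tnnc2*. With TMM-type factors *Mybpc2* passed (0.46, adjusted p = 0.0137), whereas *Myh4* (0.43, adjusted p = 0.159) and *Casq1* (0.27, adjusted p = 0.185) did not, and with the block added *Mybpc2* missed it too (adjusted p = 0.0992). *Myh4* also missed the threshold with only the 2 groups compared (adjusted p = 0.0869). The lower *Casq1* level in normal than in young fibers did so with the block (adjusted p = 0.125), which joins young and aged samples only by number. The difference between the heavy and the light chains was not tested.

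The slow genes stayed low beside *Myl2* and *Myl3*. *Atp2a2*, the slow and cardiac Ca2+ pump, was the 1 of 8 slow fiber genes that was called between the aged groups, at 1.01 to 2.75 TPM in normal and 3.01 to 6.54 TPM in abnormal samples (0.95 ± 0.25 (SE, adjusted p = 0.0296)), and with TMM-type factors it missed the threshold (0.79, adjusted p = 0.0501), as it did with only the 2 groups compared (adjusted p = 0.0787) and with the *Myh4* share as a covariate (adjusted p = 0.0693). This share of the list is near the 9.35% of all genes called. *Tnnt1*, slow troponin T, was at 0.132, 0.58, 0.201 and 0.353 TPM in normal samples, listed at 0 in 3 young and 3 abnormal samples, and did not pass the test (0.37 ± 0.11 (SE, adjusted p = 0.142) between normal and young fibers). *Myh1*, the heavy chain of type IIx fibers, was at 147 to 262 TPM in young, 46.2 to 542 in normal and 44.3 to 147 TPM in abnormal samples (-1.81 ± 0.63 (SE, adjusted p = 0.087) between the aged groups).

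Genes were then ranked by how closely they followed each member over the 12 samples, by Pearson's r of log2(TPM + 1) among 5989 genes with a mean of at least 5 TPM. All points share the libraries and the scaling, and the 3 groups are mixed in them, so r is a description. *Myl4* was followed most closely by *Prkcz*, an atypical protein kinase C (r = 0.95), *Mpi*, mannose phosphate isomerase (r = 0.94), and *Ppp1r1a*, an inhibitor of protein phosphatase 1 (r = 0.93). *Mylk2* was like *Rrs1* (r = 0.94) and *Sidt2* (r = 0.93), and *Mylk4* like *Ddx54* (r = 0.91) and *Ccdc86* (r = 0.90). *Myl1* was closest to *Hras* (r = 0.94), *Esd* (r = 0.86) and *Mrpl36* (r = 0.86). *Mylpf* was closest to the ribosomal protein genes *Rpl39* (r = 0.90), *Rpl38* (r = 0.89) and *Rpl11* (r = 0.86). For the slow chains near 0, the closest were *Ccdc91* (r = 0.82), *Sgk1* (r = 0.70) and *Cep83* (r = 0.68) for *Myl2*, and *Mzt2* (r = 0.84), *Chmp2b* (r = 0.82) and *Bloc1s2* (r = 0.81) for *Myl3*. Among the members themselves, r was 0.61 for *Mylpf* and *Myl4*, 0.56 for *Mylk2* and *Mylk4* and 0.29 for *Myl1* and *Mylpf* over the same 12 samples.

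The summed level of 5 smooth muscle markers was 63.8 to 128 TPM in young, 47.9 to 64.1 in normal and 54.3 to 67.9 TPM in abnormal samples, most of it *Smtn*, which fibers also express. The 4 satellite cell markers summed to 7.47 to 11.5, 6.6 to 9.48 and 9.47 to 14.2 TPM in the same order, 5 endothelial markers to 2.68 to 5.8, 3.59 to 9.82 and 1.61 to 6.32 TPM, 5 fibroblast markers to 18.5 to 36.3, 23.7 to 80.2 and 13.3 to 60.2 TPM, and 5 erythroid markers to 33.1 to 121, 119 to 482 and 44.4 to 236 TPM. All 4 adipocyte markers were listed at 0 in every sample. The part of these cells in the results was not tested. The 6 myofiber markers summed to 80717 to 83448, 66571 to 82163 and 83427 to 97763 TPM.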

How the data were processed

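RNA-seq values of 12 samples were used, 4 per group by the labels. The authors made libraries with the SMART-Seq v4 kit from 10 ng of RNA, used DRAGEN 4.3 for the alignment to GRCm39, and deposited TPM values per gene symbol that sum to 1000000 in each sample. The annotation release is not given in the sources used here, and counts and depth were not analysed here. Lines that repeat a symbol were summed.

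Protein-coding and mitochondrially-encoded genes with a mean of at least 0.02 TPM in 1 group were tested with limma 3.58.1 (R 4.3.3), on log2(TPM + 1), in 1 fit of the 3 groups with a variance trend, and Benjamini-Hochberg adjustment ran over all 14428 genes. A call is an adjusted p under 0.05. For ratios, all 70 ways of splitting 8 samples into 4 and 4 were enumerated (exact permutation test, two-sided), with adjustment over 12 tests. The 7 genes, the lists of related genes and markers, and the rules were chosen with earlier results of these data known. The genes named are the 7, the 2 genes per list with the smallest p in any comparison, and the 3 genes most like each of the 7, except that a few genes and 1 sequence are not reported here; others (*Cdc27*, *Septin1*, *Myh2*, *Myh3*, *Myh8*, *Myl7*, *Mylk*, *Mylk3*, *Ppp1cb*, *Tnnt3*, *Tnni2*, *Tnnc2* and the markers) were named after their values were seen, for their place or role.

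Coordinates and coding stretches come from GENCODE vM39 (GRCm39), and copies were searched with BLAST 2.17.0. The labels give the aged groups the same replicate numbers. Abnormal and normal samples of 1 number deviated together from their group means, with correlations of 0.438, 0.375, 0.43 and 0.302 over 5994 genes. Abnormal and normal samples of different numbers correlated at -0.365 to 0.234. Those of 1 number were treated as paired in an alternative fit with the replicate number as a block. Young samples had no such pairing, with same-numbered deviations from the aged ones correlated at -0.0807 to 0.228. The block was still fitted by number in the comparisons with young fibers, so a call lost only there decides nothing. The other alternatives were TMM-type factors, also together with the block, a total without mitochondrially-encoded genes, only the 2 groups compared, a pseudocount of 0.1, a filter of 5 TPM or none, all annotated genes, adjustment for the *Myh4* share, and leaving out each sample. The combination of factors and block was added after the data were seen.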

Additional observations from a re-analysis of the deposited data

Results flagged for a closer look

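In 36 groups of 4 values that were checked (7 genes, *Mylf-ps* and 4 ratios in 3 groups), 2 had a sample far from the others, and chance gives about 1 in 20. The third young sample had the highest *Myl2* value of its group, 3.54 TPM, against 0.399 TPM or less in the other 3. The first Fluo-4 abnormal sample had a log2 ratio of *Mylk4* to *Mylk2* of -1.25, above the other 3 of its group. Its *Mylk2* value was the lowest of the group and its *Mylk4* value was within it.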

How the results depend on the processing

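Each of the 7 genes was fitted under 22 alternatives, or 21 for *Myl2* and *Myl3*, which a filter of 5 TPM removes. *Myl4* was higher in both aged groups than in young fibers under every alternative, with an adjusted p of 0.00126 to 0.0302 for Fluo-4 abnormal and 0.00347 to 0.107 for Fluo-4 normal fibers. In the latter comparison the count of called genes among the 7 went from 1 to 0 with only the 2 groups compared, with the replicate block and with the replicate block plus TMM-type factors, and leaving out samples gave counts of 0 to 1. The block left 0 of all genes called there, with 1983 at an unadjusted p under 0.05, and TMM-type factors without the block left 212. The young and aged samples share only a number: their same-numbered deviations correlated at -0.0807 to 0.228. Between abnormal and normal fibers, leaving out samples gave counts of 0 to 1, and the block changed no call among the 7. All genes called there numbered 529 with block and TMM-type factors, 566 with only the 2 groups, 606 without Fluo-4 abnormal replicate 2, 820 with adjustment for the *Myh4* share, and 901 with TMM-type factors, against 1349. In the comparison of normal with young fibers, 45 to 67 genes were called without young replicate 1, 2 or 3, 51 to 86 without Fluo-4 normal replicate 2, 3 or 4 and 266 with a filter of 5 TPM, against 166, and in that of abnormal with young fibers 576 to 808 without young replicate 1, 3 or 4 and 700 to 744 without Fluo-4 abnormal replicate 2 or 4 and 684 to 700 with the block, against 1227.

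Some values changed sign, and 0 of those that did passed the threshold. Between abnormal and normal fibers, the log2 difference was -0.14 for *Myl1* and -0.094 for *Mylpf* with TMM-type factors, with or without the block, and -0.20, -0.027 and 0.012 for *Myl1*, *Mylpf* and *Myl2* with the *Myh4* share. Between abnormal and young fibers it was 0.47 for *Myl2* with a pseudocount of 0.1, and 0.14 for *Myl2* and 0.20 for *Mylk2* with the *Myh4* share. With a pseudocount of 0.1 the log2 ratio of *Myl2* to *Mylpf* differed by 0.23 between abnormal and young fibers, and that of *Myl3* to *Myl1* by -0.63 between normal and young. Leaving out samples gave these ranges, in which *Mylk4* between the aged groups and *Myl4* between normal and young fibers kept their sign. Between abnormal and normal fibers the range was -0.11 to 0.064 for *Myl4*, -0.031 to 0.63 for *Mylk2*, 0.22 to 0.48 for *Mylk4*, -0.021 to 0.17 for *Myl3* to *Myl1* and -0.28 to 0.33 for *Mylk4* to *Mylk2*. Between normal and young fibers it was -0.051 to 0.83 for *Myl2*, 0.70 to 0.88 for *Myl4*, -0.22 to 0.78 for *Myl2* to *Mylpf*, -0.00617 to 0.19 for *Myl3* to *Myl1* and -0.33 to 0.12 for *Mylk4* to *Mylk2*. Between abnormal and young fibers it was -0.29 to 0.44 for *Myl2*, -0.16 to 0.081 for *Myl3*, -0.32 to 0.21 for *Mylk2*, -0.58 to 0.25 for *Myl2* to *Mylpf* and -0.31 to 0.12 for *Mylk4* to *Mylk2*. The causes were not tested. Permuting signs within replicate numbers, the replicate block for ratios, cannot give a p under 0.125, so it says nothing of stability.

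With 4 samples a group, unknown depth and *Myl2* and *Myl3* near 0 TPM, changes of the slow chains were not detectable here, and TPM values follow every other gene of the sample.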
